A study of Mus musculus with 8 samples.

Results

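The nuclei described here are fibroblast nuclei of the adult mouse heart in which at least 2 of 6 genes, Kcnip1, Gfra1, Hsd11b1, Necab1, Tll2 and Rgs17, were detected. They were taken from single-nucleus RNA libraries, in which each unique molecular identifier (UMI) stands for 1 captured RNA molecule. Nuclei entered with at least 200 genes, under 5% mitochondrial UMIs, under 2% of UMIs from the cardiomyocyte genes Ttn, Ryr2 and Trdn, and no UMI of the endothelial gene Cdh5, the macrophage gene Csf1r or the pericyte gene Rgs5. A nucleus with 2 or more of the 4 genes Pi16, Cd248, Gfpt2 and Plcxd3, or with 2 or more of the 4 genes Fgf10, Acss3, Vit and Lvrn, was left out, because those genes mark other fibroblasts. The rule gave 3056 member nuclei among 44839 barcodes, of which 37767 passed the limits on genes and mitochondrial UMIs and 17809 passed the whole gate. All 3056 members were compared with the 10204 other gated nuclei in which at least 2 of 8 general fibroblast genes were detected. Shares are given over the 13206 gated nuclei with at least 2 of these genes, of which 3002 were members.

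The series profiled hearts of female and male mice that were either nontransgenic (nTg, labelled wild type) or transgenic for the cell cycle gene Ccna2 (Tg-ccna2, described as constitutively expressing it), with 2 libraries in each of 4 groups. The matrices of 3 nontransgenic libraries, the second female one and both male ones, held the same values as the equal-numbered transgenic libraries of their sex and had another number of columns than their own barcode lists, so they were not used. Values given library by library come first from nTg Female 1, next from Tg Female 1 and 2, and last from Tg male 1 and 2. They held 431, 879, 613, 702 and 431 members. The promoter of the transgene and the age of the mice are not given in the sources used here, and nothing says whether 2 libraries of 1 group came from separate animals, so p-values measure only the spread between these libraries.

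The targeted gene did not follow the genotype labels. Ccna2 stood at 449 CPM (UMIs of a gene per 1000000 UMIs of the summed nuclei) in the cardiomyocyte nuclei of the library labelled nTg Female 1 and at 0.448 CPM in those of the library labelled Tg Female 1, against 801, 219 and 145 CPM in Tg Female 2, Tg male 1 and Tg male 2. In the members it stood at 32.1, 0.776, 47.6, 7.96 and 1.62 CPM. Genotype was therefore not compared. The sex labels matched the sex chromosome genes in all 5 libraries. The libraries held 25045167 to 38593706 UMIs, and any pair of them shared 14 to 28 barcodes and at most 1 member barcode.

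Cardiac fibroblasts lie between the myocytes and around vessels, where they lay down and turn over the collagen network of the heart, and they are known to fall into several transcriptional states. The 6 genes that chose these nuclei have different roles. Gfra1 encodes the surface co-receptor for glial cell line-derived neurotrophic factor (GDNF), which signals through the kinase Ret. Hsd11b1 encodes the enzyme that regenerates active glucocorticoid from its inert keto form inside cells. Tll2 encodes a tolloid-like metalloprotease of the family that trims procollagens and frees growth factors from their inhibitors. Kcnip1 encodes a calcium sensor that binds Kv4 potassium channels, Rgs17 an RGS protein that shortens signalling by Gi-type G proteins, and Necab1 a neuronal calcium-binding protein.

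The stretches of 150 bases just before the annotated transcription start are shown for the markers found in the RefSeq promoter table (GRCm38.p6), and for Blnk, which had the highest ratio of members to other fibroblasts among genes outside the rule with at least 20 CPM, so that their base composition and common promoter motifs can be compared. All 6 genes lie on the minus strand and are written 5′ to 3′ on that strand: Kcnip1 (its first of 3 starts) at chr11:33993194-33993343, Gfra1 at chr19:58455399-58455548, Hsd11b1 at chr1:193242361-193242510, Tll2 at chr19:41206775-41206924, Rgs17 at chr10:5922401-5922550 and Blnk at chr19:40994222-40994371. Capitals mark a GC box, a CCAAT box or an E-box.
Kcnip1: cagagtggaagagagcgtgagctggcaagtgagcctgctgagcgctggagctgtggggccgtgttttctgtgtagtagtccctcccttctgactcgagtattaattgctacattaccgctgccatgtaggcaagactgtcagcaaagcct
Gfra1: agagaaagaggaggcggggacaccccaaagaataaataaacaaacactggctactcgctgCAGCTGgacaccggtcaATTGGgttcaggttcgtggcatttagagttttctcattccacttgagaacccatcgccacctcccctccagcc
Hsd11b1: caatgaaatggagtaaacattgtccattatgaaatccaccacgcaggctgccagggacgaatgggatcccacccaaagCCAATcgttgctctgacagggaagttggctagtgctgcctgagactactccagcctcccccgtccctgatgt
Tll2: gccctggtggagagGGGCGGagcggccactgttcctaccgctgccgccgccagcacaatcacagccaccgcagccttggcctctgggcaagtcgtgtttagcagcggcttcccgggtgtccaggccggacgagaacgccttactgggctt
Rgs17: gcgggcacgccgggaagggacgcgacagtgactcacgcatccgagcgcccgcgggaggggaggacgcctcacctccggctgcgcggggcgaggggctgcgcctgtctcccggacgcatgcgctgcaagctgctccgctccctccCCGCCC
Blnk: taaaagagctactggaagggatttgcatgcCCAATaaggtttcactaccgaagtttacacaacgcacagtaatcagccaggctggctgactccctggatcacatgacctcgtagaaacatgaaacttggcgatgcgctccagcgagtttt
Of 5 motifs searched on both strands, the GC box GGGCGG was found before 3 of the 7 starts of the 5 marker genes and before 28.6% of all 32851 promoters. The CCAAT box was found before 2 of the 7 and 24.5% of all, and the E-box CAGCTG before 1 of the 7 and 8.39% of all. TATAAA and the glucocorticoid half-site AGAACA were found before none of the 7, against 7.57% and 9.62% of all. The GC content of the 7 starts ran from 46% before the third start of Kcnip1 to 76.7% before Rgs17, beside a median of 54% over all promoters, and was 48% before Blnk. These 5 windows therefore shared no one motif of the 5 searched.

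Of the genes used to leave nuclei out, Cd248 stood at 6.48 CPM in the members and 75.1 CPM in the others, and Fgf10 at 6.62 and 55.3 CPM. The rule allows 1 gene of each set, and Lvrn stood at 321 and 324 CPM.

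The members carried the general fibroblast genes at the level of the other fibroblasts. Pdgfra, the receptor that marks cardiac fibroblasts, stood at 718 ± 82.5 CPM in the members and 691 ± 78.9 CPM in the others (SD, n = 5 libraries), and the proteoglycan gene Dcn at 3091 ± 558 and 2810 ± 635 CPM. At least 2 of the 8 fibroblast genes were found in 3002 of the 3056 members. Of the marker genes of other cells, Cd3e of T cells, Th and Chat of neurons and Adipoq of adipocytes had no UMI in the members, while other genes of those lists were detected. Pericyte and smooth muscle genes were present, with a sum of 309 to 372 CPM in the members and 236 to 398 CPM in the others. Of the 4 measured genes of that list, Abcc9 and Pdgfrb were higher in the members in all 5 libraries and Myh11 and Acta2 lower, while Rgs5 was 0 by the rule. A list of 7 endothelial genes summed to 236 to 488 CPM in the members and 533 to 691 CPM in the other fibroblasts. Its 7 genes were lower in the members in all 5 libraries. Of all genes outside the rule with at least 20 CPM, 10.2% were higher and 14.5% lower in all 5 libraries. Cardiomyocyte genes outside the gate summed to 806 to 1288 CPM in the members and to 775 to 1424 CPM in the others.

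The 6 markers chose the members, so their levels are a description. Kcnip1 stood at 350, 683, 416, 502 and 507 CPM in the members and at 52.4, 64.8, 28.3, 90.2 and 73.9 CPM in the other fibroblasts. Gfra1 stood at 385, 465, 349, 423 and 478 CPM against 138, 119, 76.9, 190 and 236 CPM. Hsd11b1 stood at 301, 327, 297, 415 and 555 CPM against 68.7, 53.9, 51.9, 160 and 241 CPM. The members were steady in Gfra1 and Rgs17 across libraries. The other fibroblasts of both male libraries carried more Kcnip1, Gfra1, Hsd11b1 and Rgs17 than those of any female library. These others include nuclei with 2 or more markers that were left out for the excluding genes. Such nuclei numbered 243, 321, 161, 579 and 540 among the gated nuclei, and their part was not tested. Necab1 stood at 255, 355, 248, 199 and 117 CPM in the members and at 52.7, 67.8, 51.5, 49.7 and 30.6 CPM in the others. Tll2 was the most variable marker, at 92, 276, 233, 331 and 138 CPM against 21.4, 59.6, 53.9, 113 and 48 CPM. Rgs17 stood at 282, 311, 312, 337 and 359 CPM against 102, 97.2, 68.8, 176 and 177 CPM.

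Most members carried few of the 6 markers at this depth, with a median of 2246 to 2861 UMIs per member. Exactly 2 markers were found in 1404 members (45.9%), 3 in 932 (30.5%), 4 in 510 (16.7%), 5 in 179 (5.86%) and all 6 in 31 (1.01%). Just outside the rule, 1966 fibroblast nuclei had 1 marker and 2765 had none. The most frequent pairs were Gfra1 with Hsd11b1 in 944 members (30.9%) and Gfra1 with Rgs17 in 826 (27.0%). A UMI of Kcnip1 was found in 40.6% to 54.7% of the members, 4.03% to 9.29% of the other fibroblasts and 1.69% to 5.32% of Cdh5-positive nuclei, which should lack it. The median depth of the Cdh5-positive nuclei was 2033 to 2580 UMIs. Members with 4 or more markers were deeper, with a median of 2411 to 3383 UMIs, than members with 2, with 2175 to 2802 UMIs.

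Each marker was also found more often in nuclei chosen by the other 5, among fibroblast nuclei within the limits on the excluding genes. The 6 were chosen as markers with earlier results of these data known, so this is a description. Here each nucleus was thinned to 1000 UMIs, which left out 0, 6, 3, 3 and 1 shallower members. Kcnip1 was found in 22.5% to 31.6% of fibroblast nuclei with at least 2 of the other 5 markers and in 4.17% to 7.75% of those with none. Gfra1 was found in 24.8% to 31.4% against 8.45% to 15.7%, and Rgs17 in 17.9% to 24.4% against 7.90% to 13.9%. The ranges lay apart for these markers, for Hsd11b1 (21.8% to 38.4% against 5.90% to 20.5%) and, narrowly, for Tll2 (8.41% to 21.3% against 1.66% to 8.19%). They overlapped for Necab1, at 6.46% to 24.7% against 2.83% to 6.66%.

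The members also lay near one another when the genes of the rule were left out. In each library the 15 nearest neighbours of every fibroblast nucleus were found from 1000 variable genes outside the rule. Genes that overlap a marker, such as Lamb3 and Gm11844 described below, were not removed beforehand, and their part was not tested. On average 29.9% to 45.4% of a member's neighbours were members, against 17.6% to 24.6% for the other fibroblasts. The share was 26.6% to 38.9% for members with 2 markers and 35.4% to 52.0% for those with 4 or more, and 12.4% to 17.1% for nuclei with no marker. In each library, nuclei just outside the rule lay below the members, though the ranges over libraries overlapped. Their share was 22.1% to 32.1% with 1 marker and 24.2% to 33.0% with 2 or more markers but left out for the other sets. Members were 19.9% to 26.9% of the nuclei searched. Fgf10-type nuclei had 18.8% to 25.4% and Pi16-type nuclei 12.2% to 18.4%. In all 5 libraries most neighbours of a member were thus nuclei outside the rule.

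Across all genes, the members differed little from the other fibroblasts. Of 8153 genes outside the rule with at least 20 CPM in the higher class, 832 (10.2%) were higher and 1185 (14.5%) lower in the members in all 5 libraries, and the median log2 ratio was -0.02. Only 6 (0.0736%) were at least 2-fold higher in every library and 53 (0.65%) at least 2-fold lower. Ratios are log2 ratios of CPM with 1 UMI added to each sum. Since the rule defined this contrast, none of these ratios was tested.

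**Figure D1:**
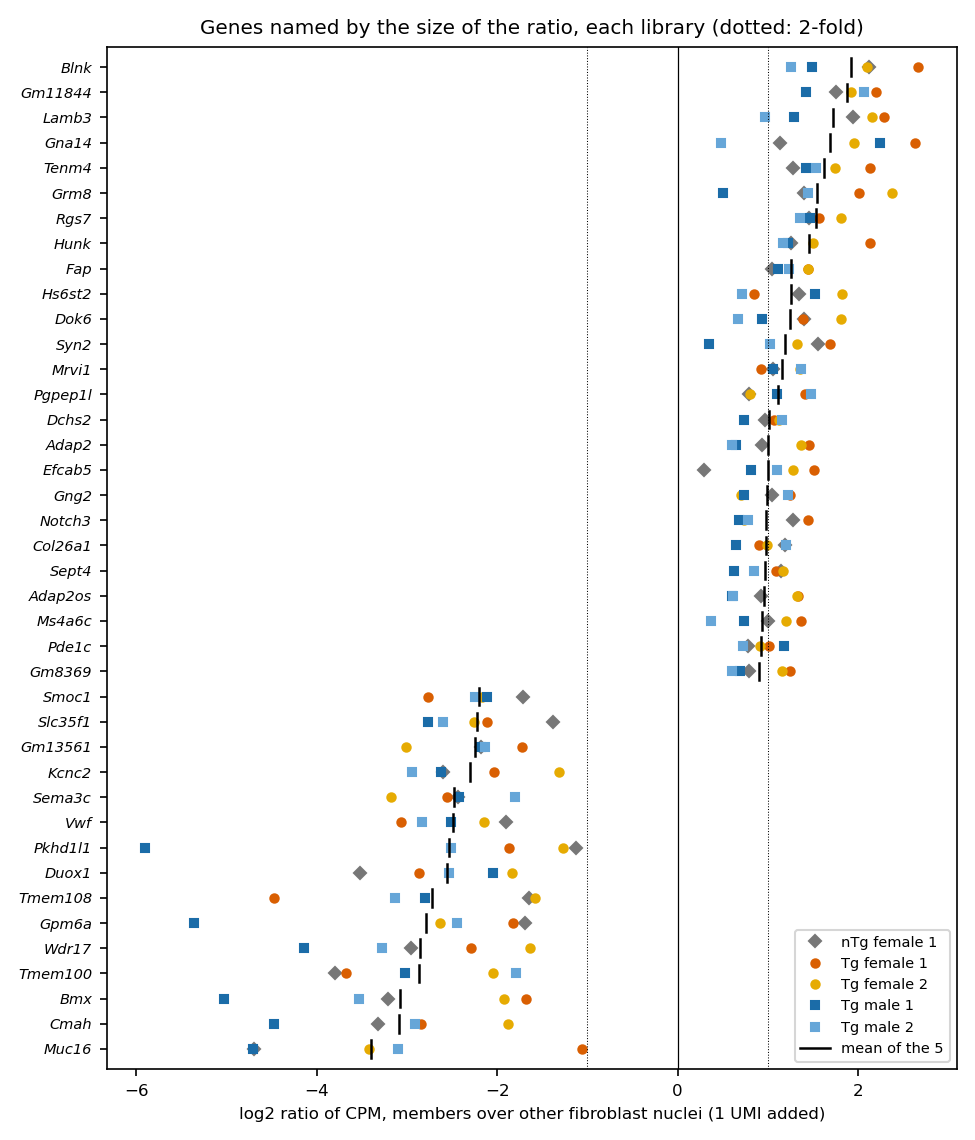
Ratio of members to other fibroblast nuclei for the 25 genes at its upper end and the 15 at its lower end; the horizontal axis is the log2 ratio of CPM, each point is 1 library and each black tick the mean of the 5. Rgs7 and Fap show tight points right of the 2-fold line, whereas Muc16, Bmx and Pkhd1l1 spread widely on the left.

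Fap, which encodes a membrane-bound serine protease of fibroblasts, was among the genes with the highest ratios. It stood at 401, 663, 446, 502 and 407 CPM in the members and at 195, 244, 163, 232 and 173 CPM in the others, a log2 ratio of 1.26 ± 0.19 (SD, n = 5). The groups did not overlap. Fap also stood far below the members in Pi16-type (141 CPM) and Fgf10-type (136 CPM) fibroblasts. It is 1 of 6 measured genes of an activated-fibroblast list. The other 5, among them Postn, Cilp and Acta2, were lower in the members in all 5 libraries, beside 14.5% of all genes. Postn, a matricellular protein of wound-activated fibroblasts, stood at 36.6 ± 17.2 CPM against 110 ± 28.2 CPM.

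The genes of this paragraph were put together after their ratios were seen, and no list of G protein genes was tested. Rgs7, another RGS protein, stood at 178, 188, 141, 203 and 137 CPM in the members against 64.9, 63.4, 39.8, 73.6 and 53 CPM, with no overlap and a log2 ratio of 1.53 ± 0.17. Gna14, a G protein alpha subunit of the Gq class, had a log2 ratio of 1.69 ± 0.87 at 14.6 to 107 CPM, and Gng2, a gamma subunit, 0.99 ± 0.26. Grm8, a metabotropic glutamate receptor that couples to Gi, stood at 69.3, 94.7, 47.6, 51 and 38 CPM against 26.1, 23.4, 8.95, 36.1 and 13.8 CPM. Its members in Tg male 2 stood close to the others of Tg male 1. Rgs6 went the other way, at 66.9 ± 32.2 CPM against 183 ± 93.1 CPM and lower in all 5 libraries. Of 4 measured RGS genes outside the rule, 2 were higher and 1 lower in all 5 libraries, beside 10.2% and 14.5% of all genes.

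Further genes with high ratios are given one by one. Tenm4, a teneurin of cell contacts, stood at 45.3, 96.2, 97.8, 44.5 and 38.8 CPM against 18.5, 21.7, 29, 16.5 and 13.2 CPM, a log2 ratio of 1.62 ± 0.33. Hunk, a protein kinase, stood at 117 CPM against 44.7 CPM on average, and Dok6, an adaptor known to bind Ret, at 39.0 against 17.1 CPM. Notch3, a receptor that pericytes also carry, stood at 74.1 against 36.6 CPM, and the part of the pericyte genes given above was not tested. The protocadherin gene Dchs2 stood at 70.6 against 34.4 CPM. Syn2, a synapsin of neuronal vesicles, stood at 60.0 against 24.4 CPM, while the neuronal list summed to 1.16 to 2.64 CPM in the members. Adap2, which acts on Arf GTPases, stood at 423 against 225 CPM. Its opposite-strand neighbour Adap2os stood at 611 against 326 CPM and overlaps it. No source used here says whether counting used strand, so it is not known whether reads of the pair were kept apart.

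Of the 25 genes with the highest ratios, 3 lie beside or across a marker gene. Blnk, an adaptor protein best known from B cells, stood at 85.4, 77.2, 59.5, 131 and 129 CPM in the members and at 19.4, 12, 13.7, 46.7 and 53.8 CPM in the others, a log2 ratio of 1.92 ± 0.56 with no overlap. It spans chr19:40928927-40994535 and begins 88.2 kb downstream of Tll2, on the same strand (GENCODE M21, GRCm38). Lamb3, the laminin beta 3 chain, stood at 92, 102, 122, 93.6 and 112 CPM against 23.7, 20.8, 27.2, 38.2 and 57 CPM. Its annotated span of chr1:193207699-193343878 on the plus strand covers all of Hsd11b1, which lies at chr1:193221634-193264075 on the minus strand. Gm11844, at 61.3 against 16.8 CPM, is an antisense RNA inside Necab1. For both of these, it is likewise not known whether counting kept RNA of the marker and of the named gene apart. Within 250 kb of the 6 markers, a distance chosen after the values were seen, 13 genes were measured and 8 were higher in all 5 libraries, with a median log2 ratio of 0.44, beside 10.2% and -0.02 over all genes. Without Blnk, Lamb3 and Gm11844, whose ratios prompted the count, 5 of 10 were higher, with a median of 0.18. They include Ranbp17 near Kcnip1 (0.78), G0s2 near Hsd11b1 (0.70) and Tmem64 near Necab1 (0.67), while Tm9sf3, 4.01 kb from Tll2, had a log2 ratio of 0.00.

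Levels were also set against the number of markers in a nucleus. Of the 25 genes with the highest ratios, 2 were ordered from no marker to 4 or more in all 5 libraries, 6 in 4, 3 in 3 and the other 14 in 2 or fewer, among them Notch3 in none. Fap stood at 121 CPM on average in fibroblast nuclei with no marker, 259 with 1, 387 with 2, 487 with 3 and 637 with 4 or more, in this order in all 5 libraries. Blnk was ordered in all 5 libraries as well, from 10.9 to 155 CPM. Rgs7 went from 26.4 to 223 CPM and Lamb3 from 12 to 163 CPM, each ordered in 4 libraries. Postn went the other way, from 194 to 22.9 CPM, and so did the collagen gene Col14a1, from 188 to 71.8 CPM. Pdgfra was 520 CPM with no marker and between 707 and 746 CPM in the rest. The nuclei with 1 marker lay between those with none and the members for Fap, Blnk, Rgs7, Lamb3, Postn and Col14a1. Members with 4 or more markers were also deeper than those with 2 in all 5 libraries, and the part of depth was not tested.

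**Figure D2:**
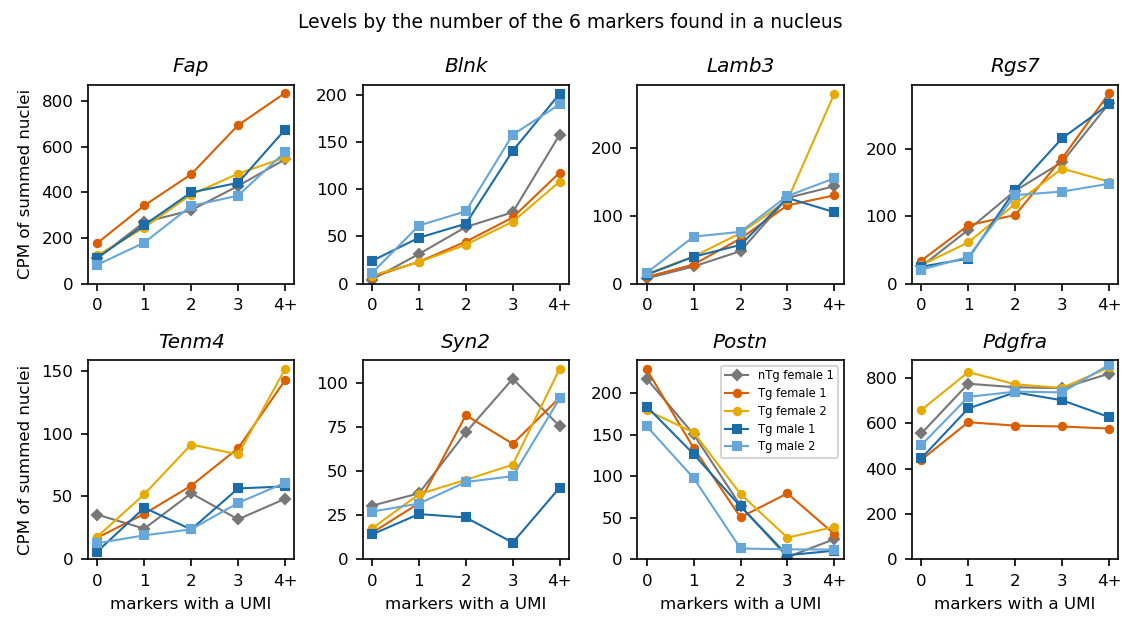
Levels of 8 genes in fibroblast nuclei by the number of the 6 markers found; the vertical axis is CPM of the summed nuclei, the horizontal axis the number of markers, and each line is 1 library. Fap and Blnk climb at every step in all 5 libraries, Postn drops, and Pdgfra is nearly level from 1 marker on.

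Among the genes lowest in the members were several that stood high in endothelial nuclei or in Pi16-type fibroblasts. Wdr17 stood at 32.8, 90, 99.1, 20.6 and 75.2 CPM in the members and at 256, 441, 308, 368 and 733 CPM in the others, and at 1387 CPM in Cdh5-positive nuclei. Vwf, which endothelial cells secrete for clotting, stood at 8.95 against 49.6 CPM, and Bmx, a kinase of endothelium, at 3.46 against 21.4 CPM. Without nuclei holding a UMI of any of 6 endothelial genes, the log2 ratio of Vwf turned from -2.49 to 0.16, that of Bmx went from -3.08 to -1.38, and 4 genes were at least 2-fold higher and 43 at least 2-fold lower. Muc16, a surface mucin of mesothelium, stood at 2.95 against 20.6 CPM. Sema3c, a secreted guidance cue, stood at 20.4, 36.1, 15.2, 22.5 and 35.6 CPM against 112, 213, 140, 122 and 125 CPM. Its level was 267 CPM in Pi16-type nuclei and 25.8 CPM in Cdh5-positive ones, and its log2 ratio was -2.61 without the endothelial UMIs. Cmah, Tmem100 and Duox1 were likewise highest in the Pi16-type nuclei among the fibroblast classes, at 45.1, 75.5 and 59.4 CPM. The rule keeps Pi16-type nuclei out of the members and among the others, which bears on these ratios.

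Few partners of the markers in their own pathways were higher in the members. Ret, the kinase that transmits the GDNF signal, stood at 35.6 ± 9.55 CPM in the members and 43.8 ± 10.6 CPM in the others, and Ncam1, another partner of Gfra1, at 12.9 ± 6.46 against 49.9 ± 13 CPM. Ncam1 was lower in all 5 libraries. Schwann cell genes summed to 122 to 378 CPM in the members and 178 to 400 CPM in the others, and their part was not tested. Of the Kv4 channel genes, Kcnd2 stood at 28.4 ± 17.0 against 62.2 ± 17.8 CPM and was lower in all 5 libraries, and Kcnip4 at 70.8 ± 9.20 against 73.6 ± 9.05 CPM. H6pd, which supplies the cofactor for the Hsd11b1 reaction, was higher in all 5 libraries but by little, at 51.4 ± 11.2 against 40.1 ± 12.7 CPM. The glucocorticoid receptor gene Nr3c1 stood at 243 ± 71.1 against 253 ± 51.6 CPM. Of 9 measured genes of the glucocorticoid list outside the rule, 2 were higher and none lower in all 5 libraries, beside 10.2% and 14.5% of all genes. The median log2 ratio of the list was 0.06 beside -0.02 over all genes.

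The matrix genes of the members were mixed. Over all genes measured, 10.2% were higher and 14.5% lower in the members in all 5 libraries, and the counts here stand beside those shares. Of 21 measured collagen genes, 8 were higher and 7 lower in all 5 libraries, with a median log2 ratio of 0.01. The higher ones included the type VI chains Col6a1, Col6a2 and Col6a3, of beaded microfibrils, with Col6a3 at 367 ± 38.5 against 248.8 ± 35.2 CPM, the basement membrane chains Col4a1 (660 ± 107 against 481 ± 93.0 CPM) and Col4a2, and Col5a3 (166 ± 31.1 against 96.5 ± 14.7 CPM). The fibril genes Col1a1 and Col3a1 differed by less than the spread between libraries, at 221 ± 21.1 against 239 ± 46.0 CPM and 780 ± 124 against 863 ± 165 CPM. Col14a1, which binds fibrils, stood at 101 ± 61.7 against 222 ± 140 CPM and was lower in all 5 libraries. Of 21 measured proteoglycan and glycoprotein genes, 3 were higher, among them Smoc2 (850 ± 124 against 552 ± 56.8 CPM), and 10 lower, among them the elastic fibre genes Eln, Fbn1 and Mfap5. Of 13 procollagen-processing genes, 4 were higher and 3 lower. Bmp1, the founding relative of Tll2, was lower in all 5 libraries at 123 ± 16.3 against 142 ± 10.6 CPM, and Plod1, a collagen lysyl hydroxylase, was higher at 85.0 ± 5.92 against 63.8 ± 9.36 CPM.

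Among signalling genes, those of bone morphogenetic proteins (BMPs) went in both directions. Bmp4, a ligand, stood at 283, 263, 225, 268 and 296 CPM in the members, or 267 ± 26.7 against 161 ± 14.4 CPM, and was higher in all 5 libraries. Its extracellular modulators Bmper (619 ± 186 against 453 ± 205 CPM) and Chrd (97.0 ± 31.2 against 71.5 ± 20.4 CPM), the latter a substrate of tolloid proteases, were higher in all 5 as well. Id3, a transcriptional target of BMP receptors, was lower in all 5, at 36.7 ± 16.9 against 61.2 ± 23.1 CPM. In all, 4 of 10 measured genes of this list were higher and 3 lower. Over all genes measured, 10.2% were higher and 14.5% lower in all 5 libraries, beside which the counts of this paragraph stand. Of 17 measured growth factor and chemokine genes, 9 were lower in all 5 libraries, among them Vegfd (26.5 ± 1.92 against 51.4 ± 9.41 CPM), Fgf2 and Csf1. Of 17 fibroblast transcription factor genes, 1 was higher, Tcf4 (1861 ± 251 against 1443 ± 130 CPM), and 9 were lower, among them Klf4 at 23.8 ± 5.04 against 55.4 ± 9.67 CPM. Of 7 measured adventitial fibroblast genes outside the rule, 6 were lower in all 5 libraries. Dpp4, the surface peptidase that marks such cells, stood at 14.2 ± 5.58 against 55.1 ± 11.9 CPM. The rule left nuclei with 2 or more of Pi16, Cd248, Gfpt2 and Plcxd3 out of the members and kept them among the others. The lower adventitial genes thus follow from the choice of nuclei.

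Members made up 20.6% of the fibroblast nuclei in the library labelled nTg Female 1, with an exact 95% binomial interval of 18.9% to 22.4% that covers counting error only. The share was 25.4% and 20.1% in the Tg female libraries and 26.5% and 19.6% in the Tg male libraries, so the sexes overlapped. The means were 22.7 ± 3.78% and 23.1 ± 4.90% (SD, n = 2 each), and an exact two-sided permutation test over libraries gave p = 1.0, where 2 against 2 cannot go below 0.33. The rule's limits on other fibroblast genes bear on this share. Counted without those limits, nuclei with at least 2 markers were 32.3%, 34.7%, 25.4%, 48.7% and 44.4% of fibroblast nuclei. Both male libraries stood above all 3 female ones. The exact two-sided permutation test gave p = 0.2 for 3 against 2, the lowest value it can give there. Most of the gap lay in nuclei left out for the Fgf10 set, which were 6.12%, 2.66%, 0.407%, 15.6% and 18.3% of fibroblast nuclei. That set holds Lvrn and Acss3, which themselves differed by sex in the members.

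**Figure D3:**
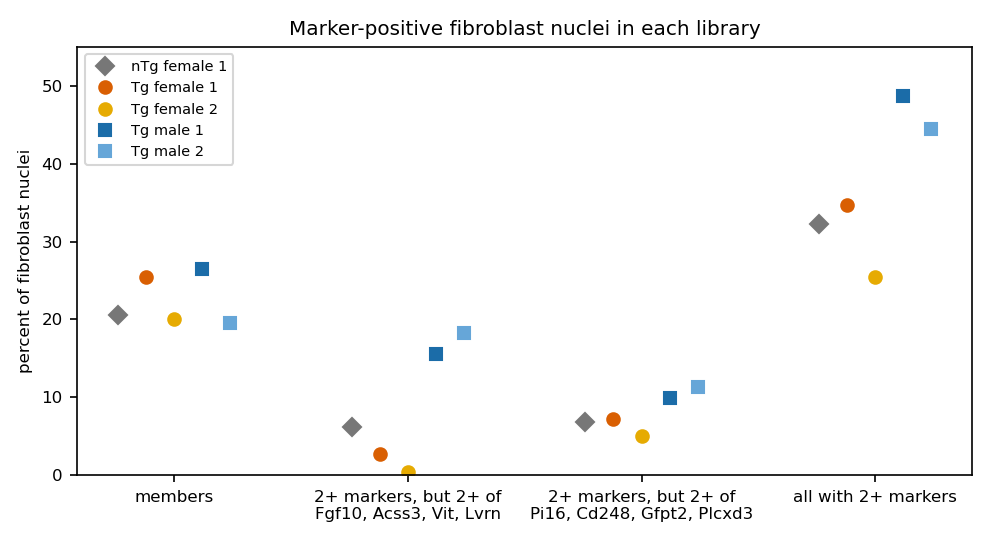
Share of fibroblast nuclei in each library that were members, had 2 or more markers but were left out for either of the other gene sets, or had 2 or more markers in all; the vertical axis is percent and each point is 1 library. Members overlap between the sexes, while all nuclei with 2 or more markers reach 48.7% and 44.4% in the male libraries.

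Sex was compared within the members of the 4 libraries labelled Tg, with UMIs summed per library and tested by edgeR's quasi-likelihood test. Of 12278 genes tested, 47 (0.383%) passed an adjusted p of 0.05, 7 of them (0.057%) higher and 40 (0.326%) lower in female members. Of these, 4 lay on the Y chromosome, 3 on the X and 40 on autosomes. For all 47 the female and male libraries did not overlap. These genes were called from the same 4 libraries, and the share of all genes without overlap was not counted, so this adds no support. The library labelled nTg Female 1, which took no part in the fit, lay nearer the female mean for 19 of the 40 autosomal genes and nearer the male mean for 21. The count moved with single libraries, with 548 genes without Tg Female 1, 444 without Tg Female 2, 83 without Tg male 1 and 29 without Tg male 2, and 23 genes passed in every one of these. Each of these fits sets 1 library against 2, so the spread comes from the pair alone and the lone library is assumed to vary like it. The female libraries also differed in Ccna2, at 0.448 and 801 CPM in cardiomyocyte nuclei of Tg Female 1 and Tg Female 2, so they may differ in genotype, and its part in these differences was not tested. None of the 6 markers passed in the members, the nearest being Hsd11b1 (log2 difference -0.69 ± 0.21 (SE), adjusted p = 0.296) and Necab1 (0.86 ± 0.26, adjusted p = 0.302). Every member had to carry at least 2 of these markers, so the test cannot decide whether they differ by sex.

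**Figure D4:**
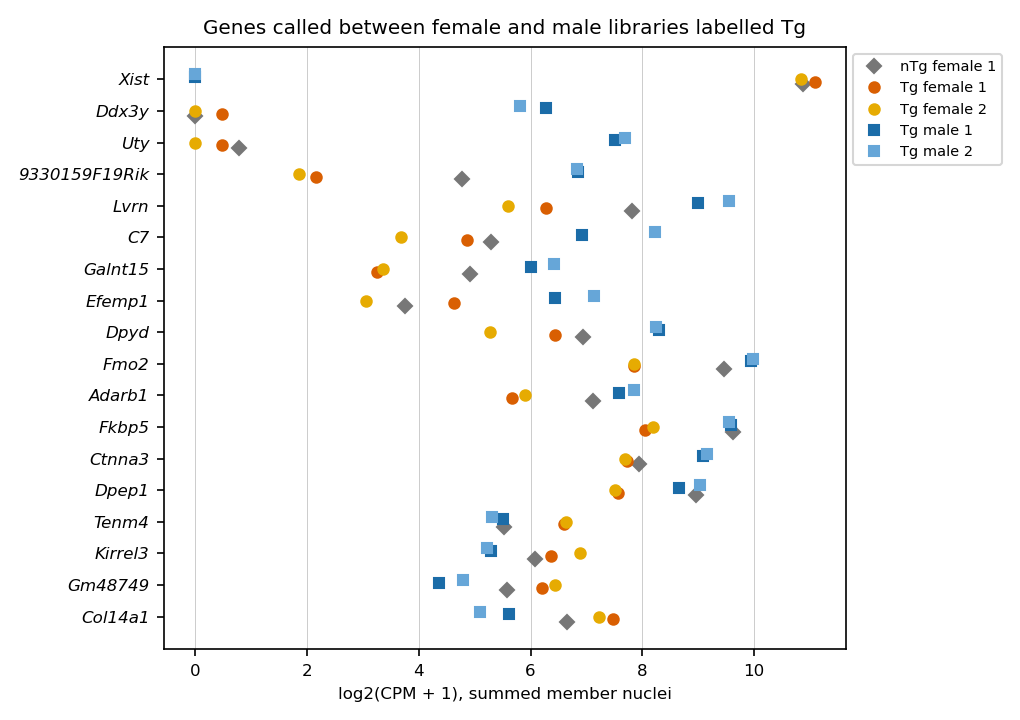
Levels of 18 genes that passed the test of sex in member nuclei; the horizontal axis is log2(CPM + 1) of the summed members and each point is 1 library. Female and male libraries labelled Tg stand apart for each gene, and nTg Female 1 stands with the male libraries for Fkbp5 and between the sexes for Lvrn.

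The sex chromosome genes separated the libraries. Xist, the RNA that coats the inactive X, stood at 1864, 2172 and 1828 CPM in the female libraries and had no UMI in the male members, at least 2299-fold higher against a floor of 3 UMIs over the male libraries. The Y-linked genes Eif2s3y and Kdm5d had no UMI in the female members and were at least 108-fold and 63.1-fold lower there than in the male members. Uty stood at 0.73, 0.388, 0, 181 and 206 CPM.

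Of the 5 autosomal genes higher in female members, 3 encode proteins. Col14a1, a collagen that binds fibrils, stood at 100, 176, 148, 48.2 and 33.1 CPM, a log2 difference of 1.91 ± 0.23 (adjusted p = 0.0042). Both Tg female libraries and nTg Female 1 stood above both male libraries. Of 22 tested collagen genes it was the 1 that passed. Tenm4 stood at 45.3, 96.2, 97.8, 44.5 and 38.8 CPM (1.15 ± 0.20, adjusted p = 0.046), with nTg Female 1 at the level of the males. Kirrel3, an adhesion protein of the nephrin family, stood at 66.4, 81.9, 117, 38.4 and 36.4 CPM (1.33 ± 0.23, adjusted p = 0.046). The other autosomal genes higher in females were the noncoding Gm48749 and 1700028E10Rik. Without Tg male 2, the adjusted p was 0.0763 for Col14a1, 0.495 for Tenm4, 0.363 for Kirrel3 and 0.0801 for 1700028E10Rik in edgeR, so these calls ended. Without Tg male 1, it was 0.104 for Tenm4, 0.0793 for Kirrel3 and 0.084 for 1700028E10Rik.

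The genes lower in female members are given one by one. Fkbp5, which encodes a chaperone of the glucocorticoid receptor that the hormone induces, stood at 784, 263, 291, 770 and 746 CPM, with a log2 difference of -1.51 ± 0.19 (adjusted p = 0.00663). The library labelled nTg Female 1 stood with the males. Zbtb16 and Tsc22d3, induced by the same hormone, had the same order of libraries, at 2287, 496, 1046, 2180 and 1793 CPM and at 340, 130, 149, 291 and 230 CPM, and did not pass. Fkbp5 was the 1 gene of 10 tested in the glucocorticoid list that passed, and the order of libraries in the rest of the list is not given here. The median log2 difference over the 10 was -0.50, beside 0.018 over all genes tested. Fmo2, a flavin monooxygenase, stood at 706, 229, 231, 982 and 1004 CPM (-2.17 ± 0.20, adjusted p = 0.000534), and Dpep1, a surface dipeptidase, at 497, 188, 181, 404 and 521 CPM (-1.38 ± 0.20, adjusted p = 0.0134). Among secreted proteins, the complement component C7 stood at 38, 27.9, 11.9, 119 and 299 CPM (-3.35 ± 0.45, adjusted p = 0.00887) and the fibulin-family gene Efemp1 at 12.4, 23.7, 7.27, 85.7 and 139 CPM (-2.79 ± 0.40, adjusted p = 0.0133). Galnt15, which starts O-linked sugar chains, stood at 29.2, 8.54, 9.25, 63.7 and 84.9 CPM (-3.11 ± 0.28, adjusted p = 0.000482). The largest autosomal differences were in Gm46323 and 9330159F19Rik, the latter at 26.3, 3.49, 2.64, 114 and 112 CPM (-5.19 ± 0.29, adjusted p = 6.46e-06), and then in Ramp1, a co-receptor for calcitonin gene-related peptide, at 1.55 and 1.98 against 20.6 and 21.8 CPM. Without Tg male 2, the adjusted p was 0.185 for Fkbp5 and 0.377 for Dpep1 in edgeR, so these calls ended. Lvrn and Acss3 passed too, but belong to the rule. Of the Fgf10 set, nuclei with 2 or more genes were left out, and these were far more frequent in the male libraries, so the male members are those left after a larger removal, whose part was not tested.

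The same test was run in the other fibroblasts of these 4 libraries, where 39 of 15451 genes passed (0.252%), and over all their fibroblast nuclei, where 38 of 16089 passed (0.236%). These tests share their libraries with that of the members, so values are only set side by side. In the other fibroblasts the log2 difference was -2.07 ± 0.25 for Fmo2 (adjusted p = 0.0317), -1.64 ± 0.21 for Fkbp5 (adjusted p = 0.0349) and 1.76 ± 0.30 for Col14a1 (adjusted p = 0.0848). Macrophage and endothelial genes were also higher in female members without passing, with median log2 differences of 3.16 over 3 and 0.96 over 7 tested genes. The macrophage list summed to 73.7, 31.4, 104, 8.43 and 10.5 CPM, and its part in the result was not tested. When the sex difference in members was tested against that in the other fibroblasts, 101 of 15106 genes (0.669%) passed, and 9 of them belong to the rule and were not read. Of the other 92, 68 were relatively higher and 24 lower in female members. Against other fibroblasts with at most 1 marker, 31 of 14429 genes passed and 27 of the 92 did. Ctnna3, a catenin, differed more in the members, at 244, 211, 205, 543 and 568 CPM, than in the other fibroblasts, at 242, 294, 185, 333 and 398 CPM (adjusted p of the difference = 0.000113). Within the members its adjusted p was 0.181 without Tg male 2. Dpep1 differed less in the members than in the others (adjusted p of the difference = 0.000115).

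The library labelled nTg Female 1 was set beside the 2 other female libraries as a description, since 1 library allows no test and its label goes against its Ccna2. Of 8646 genes, 47 (0.544%) were at least 2-fold above both and 65 (0.752%) at least 2-fold below both, beside the 24 (0.278%) and 49 (0.567%) for Tg Female 1 and the 119 (1.38%) and 56 (0.648%) for Tg Female 2. Errfi1, a feedback inhibitor of epidermal growth factor receptors, stood at 482 CPM (exact 95% Poisson interval 446 to 520) against 44.2 and 108 CPM in the Tg female libraries and 159 and 71.1 CPM in the male ones. Erbb4, a receptor of that family, stood at 157 CPM (137 to 179) against 50.8 and 16.5 CPM. Mrap2, which assists melanocortin receptors, had no UMI in the members of nTg Female 1 and of Tg Female 1 and stood at 42.3, 43.5 and 71.1 CPM in the other three libraries. Ifi205, an interferon-inducible gene, stood at 1.46 CPM against 25.6 and 63.4 CPM.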

How the data were processed

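Nuclei of adult mouse hearts were profiled with 10x Genomics libraries. The deposited UMI counts per gene and nucleus were made by the authors with Cell Ranger 7.0.0, per the file headers, on mm10, per the submitters' processing notes; strand settings are not given in the sources used here. The members and gene lists were chosen with earlier results of these data known.

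UMIs were summed over members, or over other fibroblast nuclei, in each library, and CPM are per 1000000 summed UMIs. Sex was tested on these sums with edgeR 4.0.16 (filterByExpr, TMM scaling, quasi-likelihood test, Benjamini-Hochberg adjustment over all genes) in R 4.3.3, with a sex by class term and library as a block for the comparison with other fibroblasts. DESeq2 1.42.0 was an alternative. Both edgeR comparisons, but not DESeq2, were tested on simulated data. Ratios of members to other fibroblasts were not tested. Doublets were called with scrublet in scanpy 1.11.5 at a rate of 6% and kept: they were 3.25% to 4.10% of members. Genes named were the rule's genes, genes of fixed lists, the 25 highest and 15 lowest ratios with 1 direction in all libraries, and the largest called sex differences and interactions; further called genes, the genes near markers and those of nTg Female 1 were chosen after their values were seen. Gene positions came from GENCODE M21 (32158 of 32285 identifiers matched). The 2 libraries of a group differed by more than sampling noise (chi-square per degree of freedom 7.87 for Tg female members and 2.62 for Tg male). Some genes that the naming rule or the lists would give are not reported here.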

Additional observations from a re-analysis of the deposited data

Results flagged for a closer look

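The sex difference (female minus male, log2) was set against that in the other fibroblast nuclei of the same 4 libraries labelled Tg, and these genes differed between the classes at an adjusted p under 0.05 in edgeR's interaction test. No explanation was weighed. Among the 10 largest differences were those in Rgs13 (-9.02), Gm47712 (-4.65), Bmx (3.18), Igf2 (2.96), Gm46323 (-2.92), Ccl2 (-2.79), D830032E09Rik (-2.65) and Gm12381 (-2.60). Rgs13 had no UMI in the members of either Tg female library, so its fitted value depends on the prior count. It had 11 and 25 UMIs in those of Tg male 1 and 2. The members of nTg Female 1, outside the fit, held 12. Other values also rest on few UMIs in the members. Bmx had 1 and 1 in the male libraries, and Gm47712 had 2 and 2 and Gm46323 2 and 1 in the Tg female ones. Igf2 had 36 UMIs in Tg Female 1 but 3 in Tg Female 2, beside 4 and 2 in Tg male 1 and 2. Of the 10 genes, 4 averaged under 10 CPM in both classes. Ccl2 stood at 33.7 CPM in the members of Tg male 1 and at 8.89 CPM in those of Tg male 2. Of the 10 genes, 6 also passed against other fibroblasts with at most 1 marker.

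By a limit of 50 CPM added after the data were seen, 6 more genes are given. They were 9330159F19Rik (-2.08), Wdr17 (1.63), Myh11 (-1.40), Grm8 (1.34), Gm48749 (1.28) and Angptl7 (-1.22). Gm48749, a noncoding RNA, stood at 72.6 and 85.9 CPM in female members and 19.7 and 26.7 CPM in male members, against 34.1, 40.5, 24.1 and 27 CPM in the other fibroblasts. Angptl7, a secreted angiopoietin-like protein, stood at 15.9 and 24.4 CPM in female members and 141 and 66.3 CPM in male members, against 51.8, 47.3, 120 and 114 CPM in the others.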

How the results depend on the processing

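The share of members, female minus male, of -0.32 percentage points turned to 5.85 with 1 or more markers and to 0.53 among all gated nuclei, and ran from -3.78 to 3.15 with 1 library left out (2.36 without Tg Female 2, 3.15 without Tg male 1). The 47 genes called for sex in the members became 81 with DESeq2, 329 without a filter on low counts (146 higher, 183 lower), 17 over 5 libraries without the genotype covariate and 29 to 548 with 1 library left out. With a replicate block by the labels' number, 27 genes were called, all among the 47. The numbers are not taken to pair the libraries: deviations of Tg Female 1 and Tg male 1 from the means of their sex correlated at r = 0.04 over genes. With 2 libraries a sex, the deviations of Tg Female 2 and Tg male 2 are the same with the sign turned, so they add nothing. The 101 genes whose sex difference differed from that of other fibroblasts became 18 with DESeq2 (of 1334 genes with an adjusted p), 52 with 3 or more markers, 31 against fibroblasts with at most 1 marker and 90 to 134 with 1 library left out. The difference for Myh11 ran from -2.16 to 0.076 with 1 library left out, and turned to 0.076 (adjusted p = 0.995) without Tg Female 1. Genes at least 2-fold higher in members numbered 6, and 12 with 3 or more markers, 11 against fibroblasts with at most 1 marker and 10 from 5 CPM. Those at least 2-fold lower numbered 53, and 80, 89 and 109 in the same order. Leaving out 1 library gave 6 to 8 higher and 54 to 76 lower. Vwf turned to 0.16 without endothelial UMIs. The alternatives without the excluding genes, on all fibroblasts, without endothelial UMIs and against fibroblasts with at most 1 marker were added after the data were seen. Depth limits the number of markers found per nucleus, and 2 libraries a sex limit every test.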
